A study of Mus musculus with 4 samples.

Results

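Cytokines are secreted proteins through which immune cells signal to each other and to the tissue around them, and 10 of their genes were followed here across the immune cells of the mouse liver: Ifng, Tnf, Il2, Il4, Il10, Il17a, Il21, Csf2, Areg and Tgfb1. They were chosen by gene symbol, as 10 of the 32285 gene rows measured. The data are single-cell RNA counts of CD45+ liver cells sorted from female C57BL/6 mice and prepared with the 10x Genomics 5′ chemistry, in 4 libraries. The young WT library came from untreated mice about 8 weeks old. The treated WT, miR-146a-/- and DKO libraries came from mice 36 weeks old by the labels, which had been given 25 mg/kg of the carcinogen DEN (N-diethylnitrosamine) into the peritoneum on day 14 and weaned on day 21 onto a 60% choline-deficient high-fat diet (CDHFD). DKO mice lack both miR-146a and Ccl5. Each group is 1 library, the number of mice behind a library is not stated, and there are no replicates.

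Cytokine genes are mostly silent in resting lymphocytes and are transcribed in bursts after a T-cell receptor, an activating NK receptor or an innate receptor has been engaged. Helper, cytotoxic and innate lymphocytes differ in the set they can transcribe, and transcription factors such as T-bet, GATA3, c-Maf and Blimp-1 set that range. The liver holds many lymphocytes that respond without priming, among them NKT cells, NK cells and ILC1, beside monocytes and macrophages that release TNF and activate latent TGF-β.

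The libraries held 10985, 9120, 8393 and 10623 cells and 90756272, 103165826, 88706063 and 103147246 UMIs (unique molecular identifiers, 1 per captured transcript) in the order young WT, treated WT, miR-146a-/- and DKO, and all values below that come 4 at a time keep this order. Cells with 600 to 6000 detected genes and at most 5% mitochondrial UMIs were kept, which left 10283, 8329, 7824 and 9850 cells with medians of 6782, 8210, 7910 and 7558 UMIs. Ccl5 stood at 6174, 12544, 12496 and 65.4 CPM (UMIs of a gene scaled to the same UMI total in each class or library) over the kept cells, so the library labelled as lacking it held the fewest of its UMIs. No row of the matrices reports miR-146a, and the loss of this microRNA could therefore not be read. Ptprc, which encodes CD45, had a UMI in 98.4%, 97.9%, 98.1% and 98.2% of the kept cells. Between 96 and 127 cell barcodes were shared by each of the 6 pairs of libraries, 1.18% to 1.53% of the smaller library.

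Kept cells were sorted into 22 classes by marker genes, none of which is among the 10 cytokines, and 28496 of the 36286 kept cells fell into a class. T cells needed CD3 transcripts and were divided by Cd8a, Cd8b1, Cd4, Foxp3, Zbtb16, Trdc and Pdcd1 into PD-1+ CD8, PD-1- non-naive CD8, naive-like CD8, conventional CD4, regulatory, NKT-like and gamma-delta T cells, and the remainder are called other T cells. NK cells and ILC1 were told apart by Eomes, Cxcr6 and Il7r, and those that met neither rule stayed undivided. Of 34 pairs of a class and a gene that marks it but was not used to define it, 26 ranked that class highest of 20, 32 ranked it among the highest 3, and all 34 were above the median of the classes. ILC2 and basophils, known sources of Areg, Il4 and related cytokines, numbered 4 and 1 cells over all libraries and are not described. A further 595 cells met the rules of more than 1 class and were set aside as ambiguous. Cells that met no rule numbered 1551, 1970, 1471 and 2203, and of these 17.5%, 46.1%, 43.1% and 32.2% held both T-cell and phagocyte markers.

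Class sizes differed between libraries, and a change over all kept cells holds both the level within classes and these sizes. NKT-like T cells were 15.9%, 2.21%, 1.85% and 1.83% of the kept cells, and PD-1+ CD8 T cells were 3.13%, 17.1%, 19.8% and 13.59%. Patrolling monocytes were 0.652%, 1.56%, 7.54% and 10.2%, and regulatory T cells were 0.671%, 0.360%, 2.15% and 1.57%. Levels are summed UMIs of a class in CPM of its total, with exact Poisson 95% intervals, ratios have exact conditional binomial intervals, and shares of cells have Clopper-Pearson intervals. All cover counting error only and say nothing of the spread between mice. A class with no UMI is given the level that 3 UMIs would have as its upper limit, and a ratio against it is written as at least or at most.

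The microRNA deleted in the miR-146a-/- and DKO mice acts through bases 2 to 8 of its strand, the seed, which pairs with matching sites in 3′ untranslated regions. Its mature sequence is shown because the presence or absence of the matching site in the cytokine transcripts can be read from the annotation. The RefSeq sequence at chr11:43374435-43374456 on the minus strand of GRCm38.p6 follows, with the seed in capitals.
mmu-miR-146a-5p: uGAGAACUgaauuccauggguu
The site that pairs with this seed, AGUUCUC, was in the 3′ untranslated region of 0 of the 10 cytokine transcripts, against 2321 of the 20911 genes with an annotated region (11.1%). The cytokine regions were shorter, with a median of 606 bases against 956 over those genes. A match is a description of letters, and its absence says only that these letters are not there. On chromosome 11 the microRNA lies 10.2 Mb from Il4 and 10.9 Mb from Csf2, which are 629 kb apart.

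Over all kept cells, 9 of the 10 cytokines could be compared between treated and young WT (at least 20 UMIs in 1 of the libraries), of which Il10 was at least 2-fold higher and Il2, Il4 and Csf2 were at least 2-fold lower. Of all 15715 genes read in that comparison, 5.92% were at least 2-fold higher and 3.73% lower. All 10 could be read between miR-146a-/- and treated WT, where Il17a was higher and Il4 and Il10 were lower, against 4.49% and 4.34% of 15749 genes. Between DKO and miR-146a-/-, only Il17a of the 10 moved at least 2-fold, downward, against 2.69% higher and 1.89% lower of 15728 genes. The 3 comparisons answer different questions (age, DEN and diet, which differ together; loss of miR-146a; loss of Ccl5 without miR-146a), but each shares a library with the next, so their values are set side by side and not correlated.

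**Figure D1:**
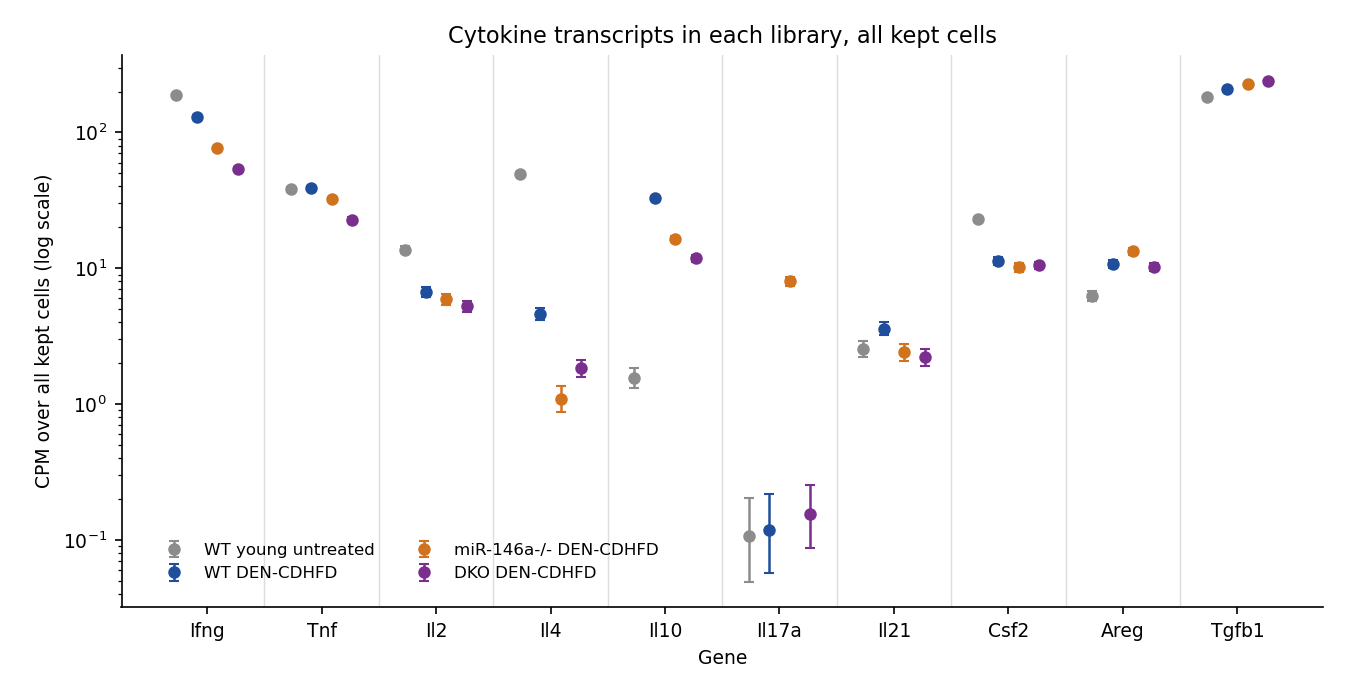
Level of each cytokine over all kept cells of each library, in CPM on a log axis, with exact Poisson 95% intervals. Il10 rises from 1.56 CPM in young WT to 33.0 in treated WT, Il4 falls from 49.35 to 4.59, and Il17a stands at 8.05 CPM in miR-146a-/- and at most 0.155 elsewhere.

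Within classes the cytokines moved more often than genes at large, which were not matched to them in level. The part that low counts and single cells with many UMIs had in this difference was not tested. A pair of a cytokine and a class was read where both libraries had at least 50 cells of the class and 1 had at least 20 UMIs. Between treated and young WT, 72 pairs were read, of which 13 (18.1%) were at least 2-fold higher and 14 (19.4%) lower, against 3.01% and 2.40% of the 126194 pairs of any gene and class. Between miR-146a-/- and treated WT, 9 of 73 pairs were higher (12.3%) and 18 lower (24.7%), against 2.45% and 3.56% of 137086 pairs. For DKO against miR-146a-/-, 7 of 76 pairs were higher (9.21%) and 6 lower (7.89%), against 2.18% and 1.25% of 153340 pairs. The median log2 ratios of the read pairs were -0.06, -0.18 and -0.14, against -0.0014, 0.00021 and -0.0064 over all genes. Of these counts, those between DKO and miR-146a-/- moved with the processing: the 7 became 3 without the 3 cells holding the most UMIs, 2 with a minimum of 50 UMIs and 11 at a limit of 1.5-fold, and the 6 became 10 with classes drawn on cells thinned to 2000 UMIs and 17 at 1.5-fold.

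The moves were spread unevenly over the cytokines. Tgfb1 passed 2-fold in none of 13, 15 and 17 pairs of the respective comparisons, whereas Il4 fell at least 2-fold in 6 of 6 pairs between treated and young WT and in 3 of 3 between miR-146a-/- and treated WT. Il10 was the cytokine with the most rises in the treated WT library, in 4 of 5 pairs. Tnf and Ifng each had 4 falls and no rise between miR-146a-/- and treated WT, in 15 and 11 pairs. Csf2 went both ways there, with 3 rises and 3 falls in 7 pairs.

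**Figure D2:**
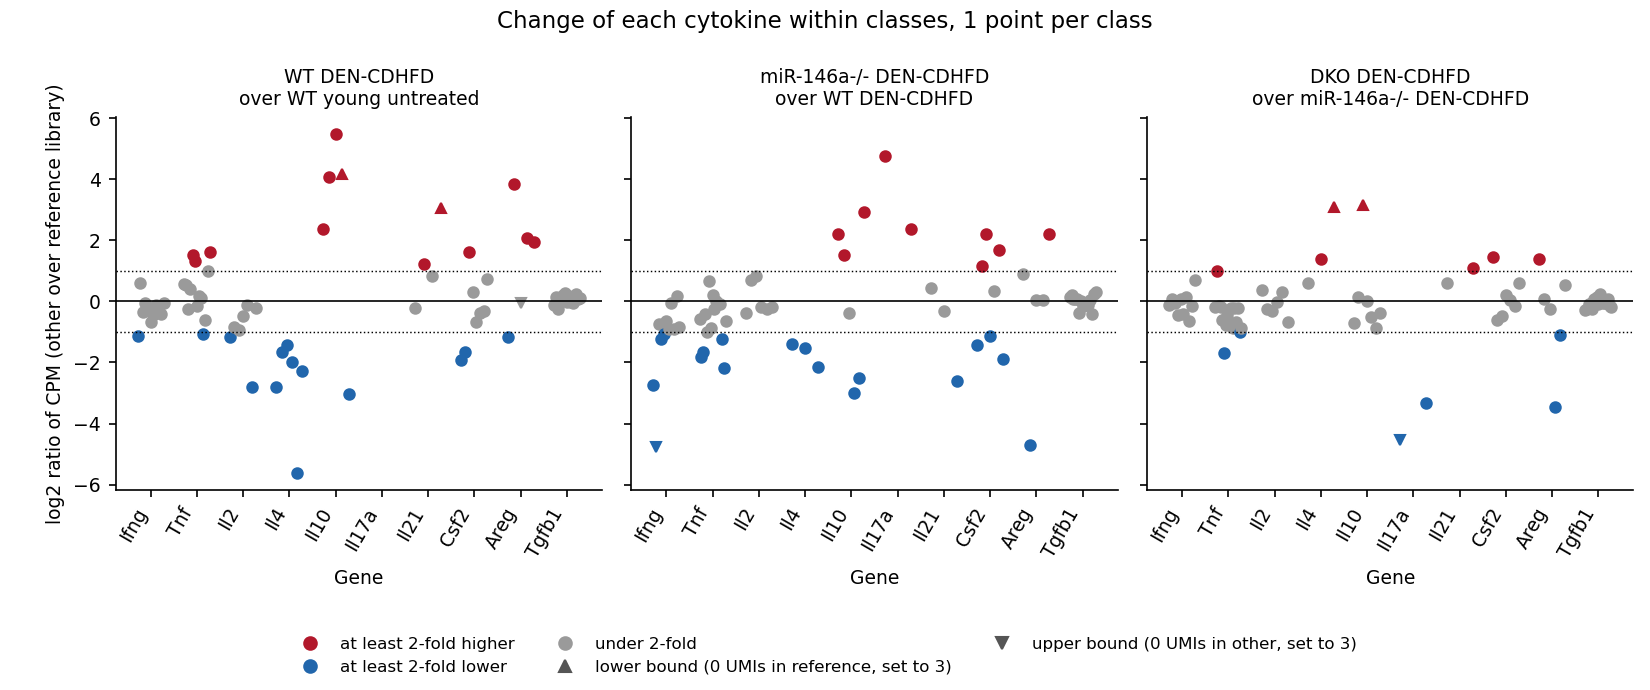
Log2 ratios of every read pair of a cytokine and a class, 1 panel per comparison, with dotted lines at a 2-fold difference and triangles for bounds where a library had no UMI (set to 3 UMIs). Il10 runs from -3.03 in patrolling monocytes to 5.48 in PD-1+ CD8 T cells between treated and young WT, and Tgfb1 stays between the dotted lines in all panels.

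The classes that held the highest level of each cytokine, pooled over the libraries, were T cells or innate lymphocytes for 8 of the 10. Ifng was highest in NKT-like T cells (312 CPM) and NK cells (301 CPM), Il4 and Csf2 in NKT-like T cells, Il2 in ILC1, Il10 and Il21 in conventional CD4 T cells, Areg in regulatory T cells, and Il17a in gamma-delta T cells through a single cell. Tnf was highest in neutrophils and Tgfb1 in classical monocytes. Pooling gives the libraries with more cells of a class more weight, and the order within a library often differed. Young WT held 1635 of the 2144 NKT-like T cells, and for Ifng NK cells were above NKT-like T cells in each library although the pooled order is the reverse. Csf2 was highest in NKT-like T cells in young WT only, and in treated WT Il2 was highest in PD-1- CD8 T cells. For Tnf in treated WT the highest class was cDC2, with 34 of 97 UMIs in 1 of 53 cells and an interval that overlaps conventional CD4 T cells and ILC1. Il10 is described below.

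**Figure D3:**
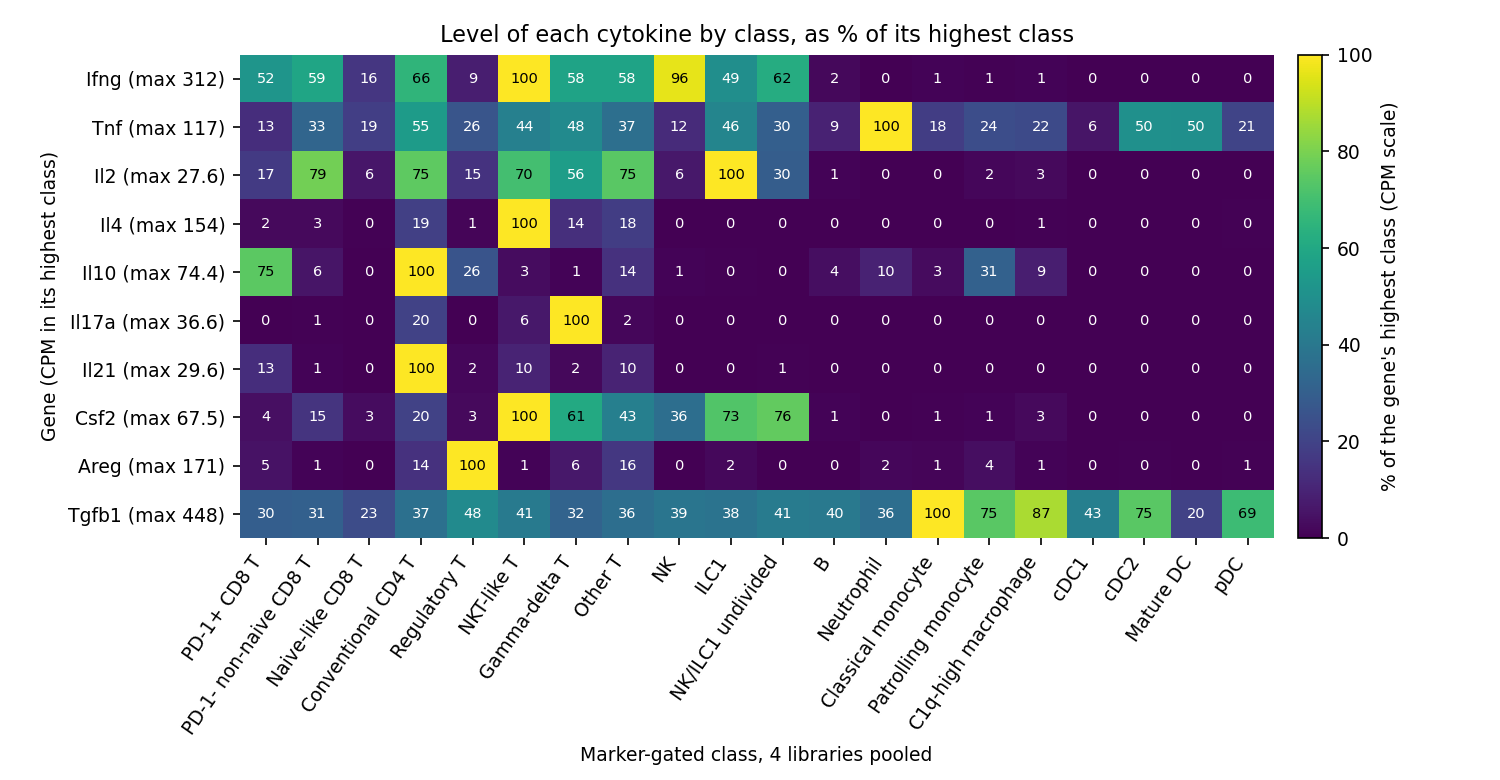
Level of each cytokine in each of 20 classes, pooled over the 4 libraries and drawn as a percentage of the highest class of that cytokine. Each cytokine has its own scale, so shades compare classes and not cytokines, and Tgfb1 is the one spread over the most classes, from 89.0 CPM in mature DC to 448 CPM in classical monocytes.

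Ifng (ENSMUSG00000055170, chr10:118441046-118445892, plus strand of GRCm38) encodes interferon-γ, the cytokine of type 1 immunity that activates macrophages and raises antigen presentation. Its level over all kept cells fell from library to library, at 187, 131, 76.7 and 53.7 CPM. Within libraries it was highest in NK cells of both WT libraries, in PD-1+ CD8 T cells of miR-146a-/- and in conventional CD4 T cells of DKO. In miR-146a-/- the interval of PD-1+ CD8 T cells (177.7 to 193.2) overlapped those of conventional CD4 T (168.4 to 197.2) and NK cells (160.5 to 190.7). In DKO NK cells stood next at 168.6 CPM, with an interval that overlapped that of conventional CD4 T cells. The pooled levels of NKT-like T cells (304 to 321 CPM) and NK cells (293 to 310) had overlapping intervals, and both were above conventional CD4 T cells at 205 CPM. Below these, undivided NK/ILC1, PD-1- CD8, other T and gamma-delta T cells lay between 181 and 194 CPM with overlapping intervals, followed by PD-1+ CD8 T cells at 163 and ILC1 at 154.5, whose intervals also overlapped. Naive-like CD8 T cells (49.3), regulatory T cells (26.8) and B cells (6.55) followed, each apart from the class above it.

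In NK cells Ifng stood at 434, 370, 175 and 169 CPM, so that the miR-146a-/- and DKO libraries lay together below both WT libraries. The ratio of miR-146a-/- to treated WT was 0.473 (95% interval 0.428 to 0.523), and it was 0.502 where cells with any UMI of another lineage's markers were left out. In ILC1 the levels were 215, 208, 89.5 and 93.8 CPM, a ratio of 0.430 (0.370 to 0.498). PD-1+ CD8 T cells did not follow this pattern, at 216, 164, 185 and 120 CPM, and conventional CD4 T cells were highest in treated WT, at 199.8, 301.5, 182 and 169 CPM. NKT-like T cells stood at 356, 260, 141 and 150 CPM and passed 2-fold in no comparison. The class with the most Ifng UMIs thus differed, from NKT-like T cells in young WT (28.5% of its UMIs) to PD-1+ CD8 T cells in treated WT (18.02%), miR-146a-/- (36.2%) and DKO (22.6%).

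The share of NK cells with an Ifng UMI, with each cell thinned to 2000 UMIs and 2, 1, 2 and 3 shallower cells left out, was 38.4%, 35.1%, 23.4% and 19.0%. Without thinning it was 61.9%, 68.1%, 52.6% and 45.2%, at median depths of 6732, 8547, 9876 and 8409 UMIs. B cells, which give the level of free RNA and misplaced cells, had shares of 1.57%, 0.418%, 0.203% and 0.542% thinned (15, 17, 0 and 8 left out) and 3.64%, 2.72%, 0.609% and 1.74% unthinned, at depths of 5722, 6976, 7231 and 6852 UMIs. B cells held Ifng at 12.6, 5.72, 0.858 and 2.71 CPM, and their own ratio of miR-146a-/- to treated WT was 0.150 (0.0389 to 0.417). Their ratio of treated to young WT, 0.454, was 0.790 with classes drawn on thinned cells and 0.528 at an exclusion limit of 3 UMIs. Classical monocytes held 17.65 and 17.3 CPM in the WT libraries (10 UMIs in 3 of 42 cells and 30 UMIs in 6 of 123 cells, 18 of these in 1 cell), none in miR-146a-/- (at most 0.633 CPM, a ratio of at most 0.0367) and 0.630 CPM in DKO. The part that free RNA had in the NK and ILC1 values was not tested.

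Tnf (ENSMUSG00000024401, chr17:35199381-35202007, minus strand) encodes tumor necrosis factor, made by T cells, NK cells and phagocytes. Over all kept cells it stood at 38.0, 38.95, 32.4 and 22.75 CPM. Pooled over libraries, neutrophils were highest at 117 CPM (101.5 to 135), apart from all other classes, although they were 19, 19, 55 and 54 cells. Conventional CD4 T cells (64.6), cDC2 (58.9), mature DC (58.2), gamma-delta T cells (56.0) and ILC1 (53.5) followed with intervals that overlapped from each to the next. B cells at 11.1 CPM and cDC1 at 6.499 were lowest.

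In monocytes, macrophages and cDC1, Tnf was highest in treated WT. Classical monocytes held 37.1, 51.8, 16.5 and 14.95 CPM, with a ratio of miR-146a-/- to treated WT of 0.318 (0.232 to 0.435). Patrolling monocytes held 31.5, 62.7, 26.5 and 23.0 CPM, a ratio of 0.423 (0.322 to 0.560), which was 0.537 with classes drawn on thinned cells and 0.509 at an exclusion limit of 3 UMIs. C1q-high macrophages held 14.1, 44.0, 12.6 and 25.1 CPM, of which the young WT value rests on 25 cells, with a ratio of 0.286 (0.133 to 0.563) for miR-146a-/- against treated WT and a 2-fold rise (1.03 to 4.27) in DKO against miR-146a-/-. cDC1 held 5.49, 17.0, 3.715 and 0.927 CPM, and the ratio of miR-146a-/- to treated WT, 0.218 (0.0815 to 0.502), turned to 1.56 when up to 3 UMIs of another lineage's markers were let in.

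Among lymphocytes Tnf in NK cells rose and fell, at 6.43, 18.5, 29.6 and 9.19 CPM. Treated to young WT was 2.88 (1.88 to 4.52) and DKO to miR-146a-/- 0.311 (0.207 to 0.459). The undivided NK/ILC1 cells held 25.2, 63.0, 34.4 and 20.35 CPM, with a ratio of treated to young WT of 2.497 that was 1.86 with classes drawn on thinned cells and 1.88 without the 3 cells with the most UMIs. PD-1+ CD8 T cells went the other way, at 32.0, 15.25, 14.3 and 12.2 CPM, and their ratio of 0.477 (0.366 to 0.626) lay between 0.5001 and 0.536 under 4 of the alternatives. In regulatory T cells the ratio of DKO to miR-146a-/- was 0.497, and 4 alternatives put it between 0.509 and 0.651. The NKT-like T cells held 52.6, 47.4, 55.1 and 40.6 CPM and conventional CD4 T cells 59.3, 86.6, 64.9 and 56.9 CPM, without a 2-fold step. Of conventional CD4 T cells, 8.70%, 12.45%, 8.87% and 7.595% had a Tnf UMI thinned (14, 5, 5 and 5 left out) and 25.35%, 30.9%, 24.8% and 20.6% unthinned, at depths of 6561, 6841, 6358 and 6605 UMIs. The pDC shares were 6.52%, 6.67%, 2.38% and 2.94% thinned (none left out) and 23.9%, 26.7%, 9.52% and 2.94% unthinned, in 46, 15, 42 and 34 cells at depths of 11548, 12020, 12932 and 13040 UMIs.

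Il2, Il4 and Csf2 are products of activated T cells and innate lymphocytes, and all 3 were lower over all kept cells of treated than of young WT. Il2 (ENSMUSG00000027720, chr3:37120523-37125959, minus strand) encodes the growth factor of T cells, Il4 (ENSMUSG00000000869, chr11:53602982-53618669, minus strand) the lead cytokine of type 2 immunity, and Csf2 (ENSMUSG00000018916, chr11:54247271-54249667, minus strand) GM-CSF, which acts on monocytes, granulocytes and dendritic cells. Their transcription after receptor engagement is known to need NFAT. The windows of 250 bases before their RefSeq start sites are shown because of this shared fall between the WT libraries. Between miR-146a-/- and treated WT only Il4 of the 3 fell at least 2-fold over all kept cells. Whether NFAT had a part was not tested. The RefSeq windows lie on the minus strand of GRCm38.p6 at chr3:37125955-37126204 for Il2, chr11:53618666-53618915 for Il4 and chr11:54249900-54250149 for Csf2. RefSeq starts can differ from the gene positions given above, and the Csf2 window does not adjoin its position. Capitals mark the NFAT core GGAAA or its reverse complement TTTCC.
Il2: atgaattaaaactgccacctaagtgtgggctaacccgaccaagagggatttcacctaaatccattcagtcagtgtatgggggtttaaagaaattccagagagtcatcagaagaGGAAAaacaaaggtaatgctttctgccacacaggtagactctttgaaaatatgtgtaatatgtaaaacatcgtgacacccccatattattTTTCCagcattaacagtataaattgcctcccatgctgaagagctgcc
Il4: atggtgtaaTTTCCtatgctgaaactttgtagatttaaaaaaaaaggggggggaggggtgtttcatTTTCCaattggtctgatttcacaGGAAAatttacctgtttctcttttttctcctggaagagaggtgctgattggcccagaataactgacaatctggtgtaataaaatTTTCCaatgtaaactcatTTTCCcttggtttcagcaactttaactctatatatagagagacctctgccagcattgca
Csf2: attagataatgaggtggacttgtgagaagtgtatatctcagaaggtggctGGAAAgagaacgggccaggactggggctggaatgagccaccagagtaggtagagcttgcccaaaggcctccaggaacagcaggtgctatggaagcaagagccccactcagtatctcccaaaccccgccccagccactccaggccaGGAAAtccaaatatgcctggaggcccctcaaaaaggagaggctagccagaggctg
The Il4 window held 5 matches and the others 2 each, while a second annotated start of Il4 at chr11:53617339-53617588 had 0. Of all 32851 windows of this length, 55.6% held at least 1 match, with a mean of 0.854. Tnf and Il21 had 3 matches, Ifng and Areg 1, and Il17a and Tgfb1 0. The letters TGANTCA, a loose form of the AP-1 site in which N is any base, were searched on both strands. They were in the Il17a window alone of these 9 genes, as TGAATCA, and in 6.75% of all windows. A stricter form of the AP-1 site was not searched. These matches are descriptions and show no binding. Il10 had no entry.

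Il4 over all kept cells stood at 49.35, 4.59, 1.095 and 1.84 CPM. The ratio of treated to young WT was 0.0929 (0.0835 to 0.103) and that of miR-146a-/- to treated WT 0.239 (0.187 to 0.302). NKT-like T cells held 54.7% of its UMIs over all libraries, and 58.3%, 30.6%, 34.5% and 33.15% in the single libraries. In DKO other T cells held a similar share, 33.7%. The level of NKT-like T cells was far above the next classes in the pooled order, at 154 CPM. Conventional CD4 T cells stood at 29.4 and other T cells at 28.3 CPM, with overlapping intervals. Gamma-delta T cells followed at 20.9 CPM, and no other class reached 5 CPM. The drop in NKT-like T cells as a share of the kept cells, from 15.9% to 2.21%, moved with the fall over all kept cells, and the level within the classes fell as well.

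Inside NKT-like T cells Il4 was 192, 71.75, 24.7 and 37.4 CPM. The ratios were 0.373 (0.308 to 0.449) for treated against young WT and 0.344 (0.222 to 0.517) for miR-146a-/- against treated WT. With cells thinned to 2000 UMIs (66, 6, 5 and 4 left out), the share of NKT-like T cells with an Il4 UMI was 23.65%, 8.99%, 5% and 5.68%, and unthinned it was 49.5%, 20.1%, 12.4% and 17.8% at depths of 7222, 8225, 7740 and 7582 UMIs. In B cells 0.314% of the thinned young WT cells had one and 0 of 717, 493 and 738 cells of the other libraries (15, 17, 0 and 8 left out), against 0.853%, 0.136%, 0 of 493 and 0.134% unthinned, at depths of 5722, 6976, 7231 and 6852 UMIs. So in each library the share of NKT-like T cells was well above that of B cells, and it was highest in young WT.

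Other T-cell classes were also highest in young WT, while the order of the other libraries varied. Conventional CD4 T cells held Il4 at 69.3, 9.84, 3.78 and 3.46 CPM (ratios 0.142 and 0.384), and other T cells at 59.0, 14.75, 3.34 and 8.71 CPM (ratios 0.2501, 0.2265 and, for DKO against miR-146a-/-, 2.61). Gamma-delta T cells held 39.1 and 12.4 CPM in the WT libraries (ratio 0.318) and no UMI in the others, which allows up to 8.23 and 4.34 CPM. Among PD-1+ CD8 T cells the ratio of treated to young WT was 0.0203, but 95 of the 104 UMIs in young WT came from 1 cell, and the 21 UMIs of the DKO library, at least 8.49-fold above the 0 of miR-146a-/-, came from 1 cell as well. PD-1- CD8 T cells fell from 12.6 to 2.575 CPM, a ratio of 0.204.

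Il2 over all kept cells was 13.7, 6.74, 5.915 and 5.25 CPM, a ratio of 0.493 for treated against young WT that was 0.5185 with at most 4500 features and 0.5196 as a mean over cells. Pooled over libraries, ILC1 ranked highest at 27.6 CPM (24.9 to 30.55), apart from PD-1- CD8 (21.75), conventional CD4 (20.7), other T (20.6) and NKT-like T cells (19.35), whose intervals overlapped. NK cells, which share the Ncr1 and Klrb1c gate with ILC1, held 1.73 CPM. In ILC1 Il2 stood at 37.1, 19.5, 32.1 and 26.85 CPM. The fall was steepest in PD-1+ CD8 T cells, at 23.4, 3.38, 2.86 and 3.57 CPM with a ratio of 0.144 (0.0946 to 0.218), while PD-1- CD8 T cells held 28.25, 24.2, 21.4 and 13.4 CPM. Conventional CD4 T cells held 33.0, 14.75, 11.3 and 14.6 CPM, a ratio of 0.447.

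The share of ILC1 with an Il2 UMI was 7.125%, 4.31%, 7.19% and 5.87% thinned (4, 4, 1 and 4 left out) and 20.2%, 12.45%, 19.9% and 16.7% unthinned, at depths of 6612, 8105, 7725 and 7420 UMIs. B cells had it in 1 of 1275, 0 of 717, 1 of 493 and 0 of 738 thinned cells (15, 17, 0 and 8 left out) and in 0.155%, 0.409%, 0.203% and 0.134% unthinned, at depths of 5722, 6976, 7231 and 6852 UMIs. High counts in a cell were rare for Il2, as at most 3 cells of a library held 5 or more UMIs.

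Csf2 over all kept cells was 23.0, 11.3, 10.2 and 10.5 CPM, and its ratio of 0.492 for treated against young WT was 0.537 with at most 4500 features and 0.504 as a mean over cells. Pooled over libraries, NKT-like T cells ranked highest at 67.5 CPM (63.7 to 71.5), and undivided NK/ILC1 (51.3), ILC1 (49.1) and gamma-delta T cells (40.9) followed, each overlapping the next. In NKT-like T cells it stood at 77.1, 59.0, 27.1 and 31.1 CPM, which was the highest class in young WT only. ILC1 were higher in treated WT (65.6), and undivided NK/ILC1 (93.9) and NK cells (42.2) in miR-146a-/-. In DKO, undivided NK/ILC1 (67.8), ILC1 (66.5) and gamma-delta T cells (52.1) were higher. Other T (30.6) and gamma-delta T cells (30.2) of miR-146a-/- and other T cells of DKO (31.95) were also above NKT-like T cells, with overlapping intervals. The step of NKT-like T cells from treated WT to miR-146a-/- was more than 2-fold downward (interval of the ratio 0.3000 to 0.689). The ratio was 0.637 with classes drawn on thinned cells, however, and 0.712 without the 3 cells with the most UMIs.

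The innate lymphocytes split over Csf2. ILC1 held 21.25, 65.6, 24.5 and 66.5 CPM, with ratios of 3.09, 0.373 and 2.72 for the 3 comparisons, but with classes drawn on thinned cells these were 1.06, 0.851 and 1.87. NK cells held 15.35, 19.0, 42.2 and 27.8 CPM, a ratio of miR-146a-/- to treated WT of 2.22 (1.67 to 2.98), and the undivided cells 32.4, 20.4, 93.9 and 67.8 CPM, a ratio of 4.602 (3.135 to 6.92). The share of ILC1 with a UMI was 2.70%, 6.47%, 3.595% and 4.70% thinned (4, 4, 1 and 4 left out) and 7.06%, 15.8%, 11.7% and 14.0% unthinned, at depths of 6612, 8105, 7725 and 7420 UMIs, against 0.620%, 0.136%, 0.203% and 0.134% of unthinned B cells and 1 of 1275, 0 of 717, 1 of 493 and 0 of 738 thinned ones. A fall in conventional CD4 T cells ran from 29.5 to 7.87 CPM (ratio 0.266, 0.148 to 0.448) and stood at 2.04 and 1.92 CPM in the others. Gamma-delta T cells held 51.1, 16.2, 30.2 and 52.1 CPM, of which miR-146a-/- rests on 40 cells and 44 of the 81 UMIs in young WT are from 1 cell. Their log2 ratio of treated to young WT was -1.66, and -1.42 without the 3 cells with the most UMIs. PD-1+ and PD-1- CD8 T cells differed in direction between miR-146a-/- and treated WT, with ratios of 3.20 (1.72 to 6.33) and 0.270 (0.158 to 0.445).

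Il21 (ENSMUSG00000027718, chr3:37222759-37232636, minus strand), 96.8 kb from Il2 on chromosome 3, encodes the helper cytokine that acts on B cells and sustains CD8 T cells. It was low over all kept cells, at 2.55, 3.60, 2.42 and 2.21 CPM, and its level was highest in conventional CD4 T cells at 29.6 CPM pooled, apart from PD-1+ CD8 T cells at 3.87 CPM, which overlapped NKT-like (2.94) and other T cells (2.89). Within conventional CD4 T cells it stood at 25.2, 21.6, 29.4 and 44.2 CPM. They held 57.5%, 14.5%, 52.6% and 53.7% of its UMIs, and in treated WT PD-1+ CD8 T cells held more, 39.3%. PD-1+ CD8 T cells held no UMI in young WT (at most 1.17 CPM), 9.81 CPM in treated WT, 1.60 in miR-146a-/- and 0.306 in DKO, so treated WT was at least 8.38-fold above young WT and the ratio of miR-146a-/- to it was 0.163 (0.0947 to 0.2655). Other T cells were 2.12-fold higher in DKO than in miR-146a-/- and 1.805-fold at an exclusion limit of 3 UMIs, but 0.9201 with classes drawn on thinned cells. NKT-like T cells had a ratio of treated to young WT of 2.35 (0.9202 to 5.35), which was 1.91 and 1.66 under 2 alternatives. Of conventional CD4 T cells, 2.74%, 4.15%, 5.765% and 4.11% had an Il21 UMI thinned (14, 5, 5 and 5 left out) and 6.77%, 7.32%, 8.99% and 11.2% unthinned, at depths of 6561, 6841, 6358 and 6605 UMIs, and 1 of the 3263 unthinned B cells had one.

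Il10 (ENSMUSG00000016529, chr1:131019845-131024974, plus strand) encodes the cytokine that restrains macrophages, dendritic cells and T cells, and it is made by regulatory and chronically stimulated T cells among others. Over all kept cells it stood at 1.56, 33.0, 16.4 and 11.9 CPM, a ratio of treated to young WT of 21.1 (17.7 to 25.4). The ratio of miR-146a-/- to treated WT was 0.496 (0.464 to 0.530), and it was 0.516 with at most 4500 features, 0.501 with TMM factors and 0.554 as a mean over cells. Pooled over libraries, conventional CD4 T cells were highest at 74.4 CPM (69.8 to 79.2), apart from PD-1+ CD8 T cells at 55.6 (53.2 to 58.1), which were apart from patrolling monocytes at 23.2. Patrolling monocytes and regulatory T cells (19.2) had overlapping intervals, and so did other T cells (10.55), neutrophils (7.11) and C1q-high macrophages (6.37).

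The order of the classes was not the same in each library. In PD-1+ CD8 T cells Il10 was 3.12, 139, 17.3 and 12.2 CPM (8, 1691, 206 and 120 UMIs), so the treated WT library stood far above the other 3. Its ratio to young WT was 44.65 (22.6 to 103.6), and the ratio of miR-146a-/- to it was 0.124 (0.107 to 0.144). In conventional CD4 T cells it was 8.82, 46.2, 131.5 and 143.9 CPM, a ratio of 5.24 (3.62 to 7.705) for treated against young WT and of 2.84 (2.27 to 3.59) for miR-146a-/- against treated WT. In young WT 23 of its 43 UMIs were from 1 cell, and without the 3 cells with the most UMIs the log2 ratios were 3.41 and 2.28, against 2.39 and 1.51. The intervals of miR-146a-/- and DKO overlapped, and 66 of 374 UMIs in DKO were from 1 cell. PD-1+ CD8 T cells therefore held 60.85% of the Il10 UMIs in treated WT but 15.8% in miR-146a-/- and 10.46% in DKO, where conventional CD4 T cells held 34.7% and 32.6%.

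**Figure D4:**
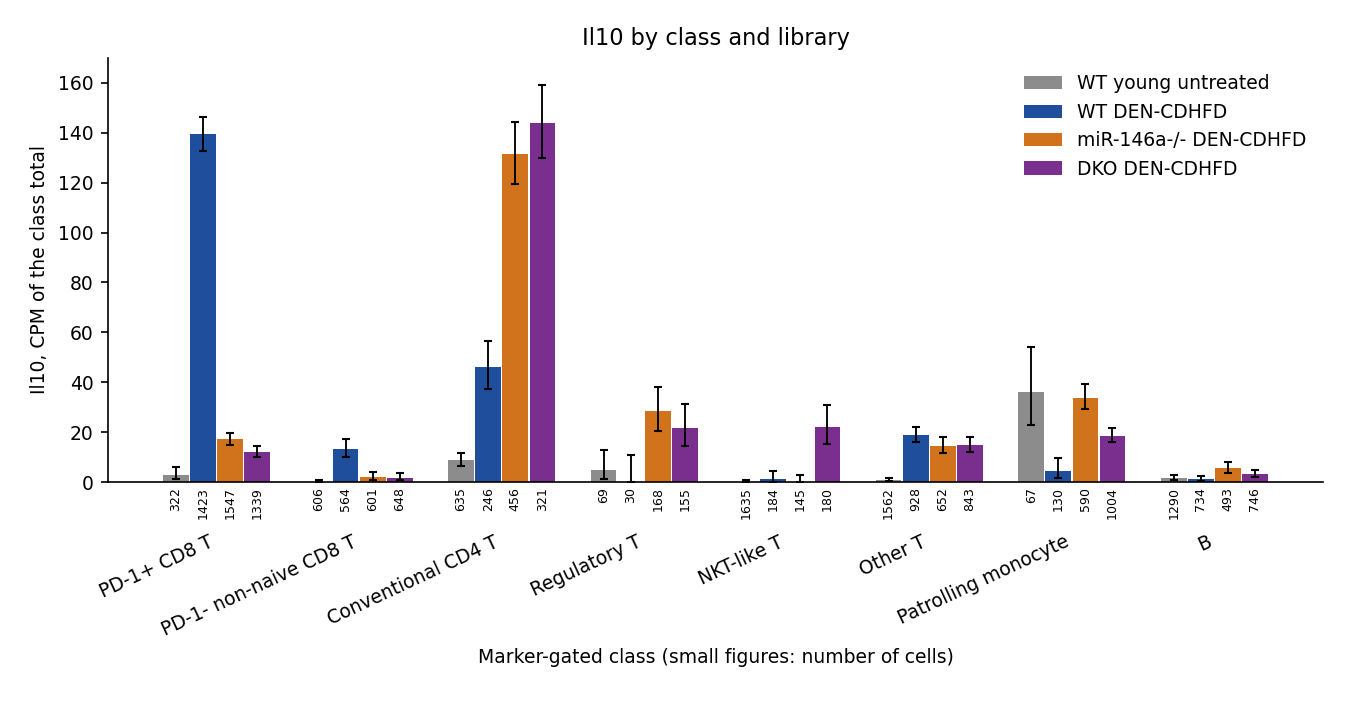
Il10 level in 8 classes of each library in CPM, with exact Poisson 95% intervals and the number of cells below each bar. The highest bar of the treated WT library is PD-1+ CD8 T cells at 139 CPM, and the highest of miR-146a-/- and DKO are conventional CD4 T cells at 131.5 and 143.9 CPM.

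The shares of cells with an Il10 UMI were highest in treated WT for PD-1+ CD8 T cells and in miR-146a-/- for conventional CD4 T cells. Of PD-1+ CD8 T cells thinned to 2000 UMIs (5, 23, 12 and 7 left out), 0.946%, 16.4%, 2.80% and 1.80% had one, and unthinned 1.86%, 31.5%, 6.53% and 5.08%, at depths of 6598, 7070, 6751 and 5957 UMIs. Of conventional CD4 T cells, 0.644%, 3.73%, 15.1% and 8.54% had one thinned (14, 5, 5 and 5 left out) and 1.57%, 6.50%, 23.25% and 16.5% unthinned, at depths of 6561, 6841, 6358 and 6605 UMIs. No pDC had one, of 46, 15, 42 and 34 cells at depths of 11548, 12020, 12932 and 13040 UMIs with none left out, which allows shares of up to 7.71%, 21.8%, 8.41% and 10.3%. B cells, some of which can make Il10, had one in 0.157%, 0.1395%, 0 of 493 and 0.6775% thinned (15, 17, 0 and 8 left out) and in 0.9302%, 0.954%, 1.01% and 1.88% unthinned, at depths of 5722, 6976, 7231 and 6852 UMIs. The pDC limits are wide because so few pDC were found. Both T-cell classes had a larger unthinned share than B cells in each library, with overlapping intervals in young WT.

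The CD8 result did not rest on the Pdcd1 gate, as all CD8 classes together held Il10 at 0.722, 87.5, 11.3 and 7.805 CPM. PD-1- CD8 T cells held none in young WT (at most 0.743 CPM), then 13.4, 2.35 and 1.95 CPM, so treated WT was at least 18.01-fold above young WT and miR-146a-/- stood at 0.176 of it. Other T cells rose from 1.13 to 19.0 CPM (ratio 16.7, 9.65 to 31.4) and stayed at 14.6 and 14.8 CPM. Regulatory T cells, for which Il10 is a known product, held 5.08, 0, 28.4 and 21.9 CPM in 69, 30, 168 and 155 cells, and the 0 allows up to 9.04 CPM.

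Patrolling monocytes differed from the T cells, at 36.2, 4.43, 34.0 and 18.7 CPM. The ratio of treated to young WT was 0.122 (0.0407 to 0.309), with the 23 young WT UMIs in 3 of 67 cells, and that of miR-146a-/- to treated WT was 7.68 (3.46 to 21.2), where 86 of 590 cells had a UMI. NKT-like T cells of DKO held 35 UMIs in 5 cells, 19 of them in 1 cell, at least 9.001-fold above the 0 of miR-146a-/-. B cells had 1.74, 1.205, 5.58 and 3.42 CPM, and 20 of the 26 UMIs in miR-146a-/- were from 1 cell.

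Transcription factors named with cytokine programs were compared between PD-1+ CD8 T cells with and without an Il10 UMI. In treated WT these were 448 and 975 cells with medians of 7937 and 6644 UMIs, and the part of depth in the split was not tested. Batf was at 366 and 169 CPM (ratio 2.17), Prdm1 at 162 and 78.0 CPM (2.07) and Maf at 455 and 239 CPM (1.905), whereas Tbx21 (0.824), Nfatc2 (0.617) and Bcl6 (0.573) were lower in the cells with Il10. In miR-146a-/- (101 and 1446 cells) the ratios were 2.13 for Batf, 1.83 for Prdm1 and 2.17 for Maf, and in DKO (68 and 1271 cells) 1.77, 1.56 and 2.72. Conventional CD4 T cells of miR-146a-/- (106 and 350 cells, medians 6742 and 6231 UMIs) had ratios of 2.58, 3.50 and 2.79. Maf, Batf and Prdm1 were thus higher in the Il10 cells of both lineages and of each library read.

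Genes added after their values had been seen behaved as follows. Lag3 and Havcr2, which encode inhibitory receptors, had ratios of 2.30 and 2.05 in PD-1+ CD8 T cells of treated WT, 1.62 and 3.07 in miR-146a-/- and 2.03 and 3.34 in DKO. Ifng had a ratio of 1.01 in treated WT but 2.705 in miR-146a-/- and 2.30 in DKO. The cells with Il10 held a mean of 23.8 Cd8a and Cd8b1 UMIs in PD-1+ CD8 T cells of treated WT (17.7 without Il10). In conventional CD4 T cells of miR-146a-/- they held a mean of 4.09 Cd4 UMIs (3.13 without). These are means, and a single cell can hold fewer.

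Il21 was found in a larger share of cells with Il10 than of cells without it in PD-1+ CD8 and conventional CD4 T cells, apart from PD-1+ CD8 T cells of young WT, which had no Il21. The differences were not tested. In PD-1+ CD8 T cells of treated WT, 10.3% of cells with Il10 and 2.46% of those without it had an Il21 UMI, and the shares were 6.93% and 0.553% in miR-146a-/- and 1.47% and 0.157% in DKO, the last from 1 of 68 and 2 of 1271 cells. In conventional CD4 T cells these shares were 60% (of 10 cells) and 5.92% in young WT, 25% (of 16 cells) and 6.09% in treated WT, 20.75% and 5.43% in miR-146a-/- and 30.2% and 7.46% in DKO, the last 2 at medians of 6742 and 6231 and of 6907 and 6456 UMIs. In NKT-like T cells, Ifng was in 62.7% of the cells with Il4 and 54.4% of those without it in young WT, 64.9% and 52.4% in treated WT, 38.9% and 39.4% in miR-146a-/-, and 50% and 43.2% in DKO. The cells with Il4 numbered 810, 37, 18 and 32, too few in the treated libraries to tell a difference from none. Cells with more UMIs show more genes, and the part this had in these shares was not tested.

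Areg (ENSMUSG00000029378, chr5:91139599-91148432, plus strand) encodes amphiregulin, a ligand of the EGF receptor through which regulatory T cells and ILC2 act on tissue repair. Over all kept cells it was 6.27, 10.7, 13.3 and 10.2 CPM. Regulatory T cells were highest at 171 CPM (158 to 184), apart from other T cells (27.7) and conventional CD4 T cells (24.2), whose intervals overlapped. Regulatory T cells held 163, 265, 133.5 and 194.5 CPM in 69, 30, 168 and 155 cells, without a 2-fold step where 50 cells were reached. Of them 13.04%, 12.5% and 14.3% had a UMI in young WT, miR-146a-/- and DKO thinned (0, 0 and 1 left out) and 23.2%, 29.8% and 27.1% unthinned, at depths of 8735, 7443 and 7037 UMIs, whereas B cells had none of 1290, 734 and 493 unthinned cells and 0.268% in DKO, and none thinned.

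In regulatory T cells 1 cell held 49 of the 128 UMIs in young WT and 29 of the 88 in treated WT. A few cells also carried much of the Areg in other classes. Other T cells rose from 9.48 to 40.2 CPM between young and treated WT (ratio 4.24) and held 41.3 and 35.1 CPM in the others, but with classes drawn on thinned cells the ratio was 1.57. PD-1+ CD8 T cells held 3.12, 11.95, 12.4 and 1.12 CPM, with 145 UMIs in 19 cells of treated WT, and the ratio of DKO to miR-146a-/- was 0.0901 (0.0440 to 0.166), but 0.7455 with classes drawn on thinned cells. ILC1 held 0.720, 10.46, 0.401 and 0 CPM (the last at most 0.767), with 45 UMIs in 5 cells of treated WT, 27 of them in 1 cell. Conventional CD4 T cells had a ratio of treated to young WT of 0.4485, which was 0.763 without the 3 cells with the most UMIs and 4.42 with classes drawn on thinned cells. Patrolling monocytes held 0 (at most 4.72), 2.21, 10.35 and 4.87 CPM, and the ratio of DKO to miR-146a-/-, 0.470, was 0.581 without the 3 cells with the most UMIs.

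Tgfb1 (ENSMUSG00000002603, chr7:25687002-25705077, plus strand) encodes TGF-β1, which is released in latent form, restrains T cells and drives fibrosis. It was the most evenly spread of the 10 over cells and libraries, at 181, 208, 229 and 239 CPM over all kept cells. Classical monocytes were highest at 448 CPM (436.5 to 459), apart from C1q-high macrophages (390), which were apart from patrolling monocytes (334) and cDC2 (334), and these overlapped each other and pDC (307). Classical monocytes held 464, 443, 464.5 and 435 CPM, C1q-high macrophages 325, 386, 445 and 378 CPM, and patrolling monocytes 399.8, 419.6, 315 and 328 CPM. T-cell and NK classes lay between 104 CPM in naive-like CD8 and 214 CPM in regulatory T cells. Of classical monocytes in treated WT, miR-146a-/- and DKO, 55.3%, 54.2% and 55.4% had a UMI thinned (0, 1 and 0 left out) and 95.9%, 100% and 98.1% unthinned, at depths of 13239, 20792 and 19590 UMIs. The shares of pDC in the 4 libraries were 47.8%, 33.3%, 47.6% and 38.2% thinned (none left out) and 95.65%, 80%, 92.9% and 97.1% unthinned, at depths of 11548, 12020, 12932 and 13040 UMIs. No pair of Tgfb1 and a class was 2-fold apart in any comparison, and the rise over all kept cells went with more monocytes, of which the classical held 1.73% of its UMIs in young WT and 12.0% in DKO, and the patrolling 1.67% and 13.4%.

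Il17a (ENSMUSG00000025929, chr1:20730905-20734496, plus strand) encodes the cytokine through which gamma-delta T cells and Th17 cells call in neutrophils. It was nearly absent, with 9, 10, 640 and 15 UMIs in 6, 5, 17 and 4 cells. The ratio of miR-146a-/- to treated WT over all kept cells was 67.8 (36.6 to 142) and that of DKO to miR-146a-/- 0.0193 (0.0107 to 0.0320), but 1 cell held 276 of the 640 UMIs (43.1%) and 3 cells held 76.7%. These intervals treat UMIs as independent, which UMIs of 1 cell are not.

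Of the 17 cells with Il17a in miR-146a-/-, 13 had a Ccr6 UMI, 9 a Cd4 UMI, and 5 at least 2 Trdc UMIs. Gamma-delta T cells held 126 UMIs, of which 124 were in 1 of 40 cells, and conventional CD4 T cells 92 UMIs in 6 of 456 cells (26.8 CPM, 27.2-fold above treated WT with an interval of 7.32 to 228). In DKO no conventional CD4 T cell had one (at most 1.15 CPM), a ratio of at most 0.0431. Cells in no class held 380 UMIs in 6 cells. Il17f, its nearest relative, was at 0.0358, 0.0119, 0.944 and 0.0207 CPM, highest in the same library.

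How many cells carried a cytokine differed between the 10. The fewest cells that hold 50% of the UMIs numbered 529, 482, 380 and 335 for Ifng, 382, 308, 252 and 277 for Tnf, and 1416, 1111, 930 and 1206 for Tgfb1. For Il4 they were 235, 20, 16 and 19, and for Il10 8, 120, 69 and 47. For Il17a, Il21 and Areg they were 2, 2, 2 and 1 cells, 15, 39, 17 and 9 cells, and 12, 14, 27 and 22 cells. In the treated WT library 167 cells held 5 or more Il10 UMIs and together 58.9% of them, against 5 cells in young WT.

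**Figure D5:**
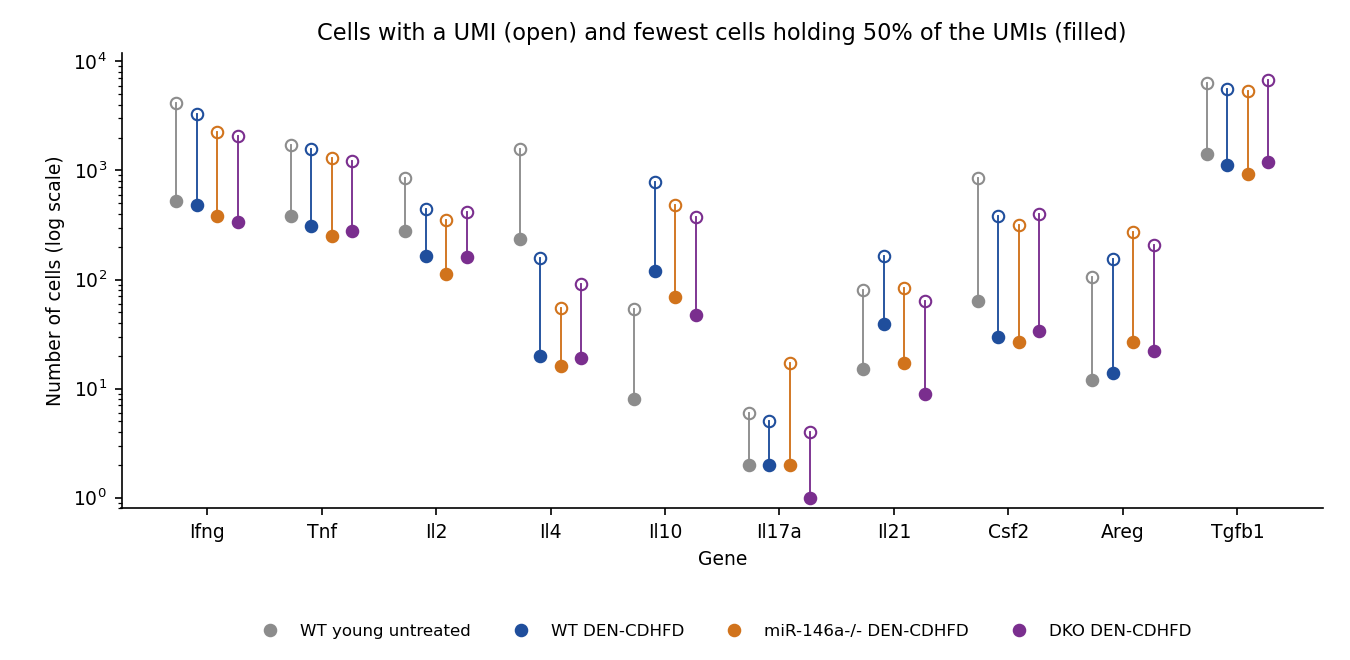
Number of cells with a UMI of each cytokine (open) and the fewest cells that hold 50% of its UMIs (filled) in each library, on a log axis. Il4 needs 235 cells in young WT and 16 to 20 in the others, Il10 8 cells in young WT and 120 in treated WT, and Il17a at most 2 cells in each.

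The genes whose level was most like each cytokine were found over 65 points (a class in a library, at least 50 cells) among 6433 genes, by Pearson correlation of log2 of CPM plus 5. Points of a library share its depth and points of a class its identity, so these are descriptions. The most like were Fasl for Ifng (0.972), Zfp683 for Il2 (0.959), Bri3 for Tgfb1 (0.925), Klrc2 for Csf2 (0.896), Ncmap and Itgb8 for Areg (0.868 and 0.8675), Cd40lg for Il4 (0.861) and Sostdc1 for Il21 (0.818). Il10 was most like Gcg at 0.7435, and Tnf (Rtp4, 0.652) and Il17a (Trav3-4, 0.525) had no gene with a close pattern.

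The 5 lists of related genes were read over all kept cells, where the shares of all genes at least 2-fold higher and lower were 5.92% and 3.73% between treated and young WT, 4.49% and 4.34% between miR-146a-/- and treated WT, and 2.69% and 1.89% between DKO and miR-146a-/-. Of 18 receptor genes of the 10 cytokines, all read in each comparison, 2 were at least 2-fold higher and 1 lower between treated and young WT, and none between miR-146a-/- and treated WT or between DKO and miR-146a-/-. The largest ratios between treated and young WT were 2.49 for Il17rc, at 0.167 and 0.416 CPM, and 0.482 for Il2ra, at 27.7 and 13.4 CPM. Between miR-146a-/- and treated WT they were 1.87 for Egfr and 0.773 for Il4ra, and between DKO and miR-146a-/- 1.24 for Tgfbr1 and 0.703 for Egfr. By class, Il2ra was highest in regulatory T cells (125 CPM), Csf2ra in classical monocytes (382 CPM) and Il10ra in cDC2 (307 CPM), while Ifngr1 was highest in NK cells (777 CPM), where Ifng was high as well.

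Of 12 transcription factors, 1 rose at least 2-fold between treated and young WT, Prdm1 from 19.5 to 40.9 CPM (2.10). Foxp3 rose from 7.26 to 25.65 CPM between treated WT and miR-146a-/- (3.53), beside the larger share of regulatory T cells, and no other passed 2-fold there, with Irf4 lowest at 0.632. Between DKO and miR-146a-/- none rose 2-fold, and the highest was Bcl6 at 1.065. Tbx21 stood at 196, 131, 96.3 and 84.9 CPM and Gata3 at 55.5, 43.7, 33.7 and 28.9 CPM. Both fell from library to library, as Ifng did over all kept cells. These levels also hold the class sizes, and a link with Ifng was not tested.

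Of 10 genes for the release, activation and mRNA decay of cytokines, 9, 9 and 10 were read and 1 rose and 1 fell, both between DKO and miR-146a-/-: Ltbp1 at 5.53 (from 0.138 to 0.765 CPM) and Lrrc32 at 0.491. Between treated and young WT the ratios ran from 0.823 for Zfp36l2 to 1.93 for Itgb8, and between miR-146a-/- and treated WT from 0.557 for Zfp36 to 1.44 for Lrrc32. Zfp36, whose protein shortens the life of Tnf mRNA, stood at 903, 1080, 601 and 692 CPM.

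Other lymphocyte cytokines numbered 15, of which 10 were read in each comparison. Between treated and young WT 2 fell, with Cd40lg lowest at 0.221 (104 to 22.9 CPM) and Xcl1 highest at 1.065. Between miR-146a-/- and treated WT Il17f rose, at 79.4 (13.8 to 3179, 1 UMI in treated WT), with 28, 21 and 10 of its UMIs in miR-146a-/- from 3 of the cells that held Il17a, and Lta was lowest at 0.507. Between DKO and miR-146a-/- Il17f fell to 0.0219 and Xcl1 was highest at 1.155. Il3 and Il9 are listed at 0 in all libraries.

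Of 14 other myeloid cytokines 13 were read. Between treated and young WT 4 rose, led by Il12b at 4.81 (3.35 to 16.1 CPM), and none fell, with Il12a lowest at 0.714. Il12b lay in mature DC at 478 CPM, a class of 8, 41, 14 and 30 cells. Between miR-146a-/- and treated WT 2 fell, with Il6 lowest at 0.235 (0.115 to 0.445) and Il27 highest at 1.58. Between DKO and miR-146a-/- Il6 rose to 6.78-fold (3.71 to 13.6), while Il12b was lowest at 0.722. Il6 was low in each library of these CD45+ cells, at 0.215, 0.642, 0.151 and 1.02 CPM.

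Within classes the lists moved as follows, in pairs of a gene and a class at least 2-fold higher and lower. Over all genes these were 3.01% and 2.40% of pairs between treated and young WT, 2.45% and 3.56% between miR-146a-/- and treated WT, and 2.18% and 1.25% between DKO and miR-146a-/-. Receptors had 9 and 3 of 195 pairs between treated and young WT, 3 and 16 of 222 between miR-146a-/- and treated WT, and 7 and 3 of 246 between DKO and miR-146a-/-. In the same order, transcription factors had 10 and 2 of 119, 6 and 9 of 127, and 1 and 1 of 139, and release and activation genes 4 and 2 of 91, 2 and 11 of 105, and 0 and 1 of 121. Other lymphocyte cytokines had 7 and 12 of 92, 5 and 10 of 90, and 6 and 2 of 98, and other myeloid cytokines 17 and 6 of 74, 3 and 15 of 78, and 8 and 4 of 90. In each of the 5 lists, as in the 10 cytokines, more pairs were lower than higher between miR-146a-/- and treated WT, and so it was over all genes.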

How the data were processed

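The matrices hold raw UMI counts per gene and cell, made by the authors with Cell Ranger 7.0.1 (per the file headers) against GRCm38 and deposited without normalisation, for droplets called as cells. The labels do not say if introns counted toward a gene. A cell was used when it had between 600 and 6000 features and its mitochondrial share did not pass 5%, and doublets were treated only by the upper feature limit. Genes were taken by symbol, each with 1 Ensembl entry, and classes were set by marker genes with at most 1 UMI of another lineage's markers. The 10 genes and the 5 lists (receptors, transcription factors, release and activation, other lymphocyte cytokines, other myeloid cytokines) were chosen with earlier results of these data known. Ratios were read from at least 20 UMIs and 50 cells, and shares were taken on cells thinned to 2000 UMIs.

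Alternatives were lower and upper limits of 200 and 4500 features, a mitochondrial limit of 10%, classes on thinned cells, exclusion limits of 0 and 3 UMIs, TMM factors, a mean over cells, removal of the 3 cells with the most UMIs, a minimum of 50 UMIs, a fold of 1.5, and shares thinned to 1000 UMIs or not thinned. Scripts ran in Python 3.11.15 with numpy 2.4.6, scipy 1.17.1, pandas 2.3.3 and matplotlib 3.10.9, and TMM factors in R 4.3.3 with edgeR 4.0.16.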

Additional observations from a re-analysis of the deposited data

Results flagged for a closer look

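Several cytokines moved in opposite directions in different classes of the same comparison, given here as log2 ratios. Between treated and young WT, Il10 rose by 5.48 in PD-1+ CD8 T cells and stood at -3.03 in patrolling monocytes, Tnf was at 1.63 in cDC1 and -1.07 in PD-1+ CD8 T cells, Csf2 at 1.63 in ILC1 and -1.91 in conventional CD4 T cells, and Areg at 3.86 in ILC1 and -1.16 in conventional CD4 T cells. Between miR-146a-/- and treated WT the Il10 values changed places, with 2.94 in patrolling monocytes and -3.01 in PD-1+ CD8 T cells. Csf2 was at 2.20 in undivided NK/ILC1 and -1.89 in PD-1- CD8 T cells there, and Areg at 2.23 in patrolling monocytes and -4.705 in ILC1. For DKO against miR-146a-/-, Tnf was at 1.00 in C1q-high macrophages and -1.69 in NK cells, and Areg at 1.38 in classical monocytes and -3.47 in PD-1+ CD8 T cells. With classes on cells thinned to 2000 UMIs, Csf2 in ILC1 was at 0.09 and Areg in conventional CD4 T cells at 2.145 between treated and young WT, and Areg in PD-1+ CD8 T cells at -0.42 between DKO and miR-146a-/-, so these contrasts did not hold there. The Il10 value of patrolling monocytes in young WT rests on 23 UMIs in 3 cells. The Areg values in ILC1 and classical monocytes rest on few cells, with 27 of 45 UMIs of ILC1 in treated WT and 17 of 21 of classical monocytes in DKO from 1 cell each. What set the classes apart was not tested.

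Cells that met the rule of no class also held signal. Il10 stood at 30.9 CPM there in treated WT and 1.10 CPM in young WT, and Il17a at 20.7 CPM in miR-146a-/- and 0 in young WT, from 6 cells. In treated WT and miR-146a-/-, 46.1% and 43.1% of these cells held both T-cell and phagocyte markers. Whether the Il10 and Il17a UMIs came from doublets was not tested.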

How the results depend on the processing

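The 95 ratios named were recomputed under 9 alternatives, 855 values in all, of which 46 could not be read. Counts of cytokine and class pairs kept within 1.5 times their value except between DKO and miR-146a-/-. There the 7 higher pairs became 3 without the 3 cells with the most UMIs, 2 with a minimum of 50 UMIs and 11 at a fold of 1.5, and the 6 lower pairs became 10 with classes on cells thinned to 2000 UMIs and 17 at a fold of 1.5. The log2 ratio changed direction in 3 cases. With classes on thinned cells, Il21 in other T cells between DKO and miR-146a-/- went from 1.09 to -0.12 and Areg in conventional CD4 T cells between treated and young WT from -1.16 to 2.145. At an exclusion limit of 3 UMIs, Tnf in cDC1 between miR-146a-/- and treated WT went from -2.195 to 0.65. Of the 75 ratios at least 2-fold apart, none lost that call at limits of 200 features or 10% mitochondrial UMIs. Classes on thinned cells ended the most calls, 12, with 18 more of the 95 not read. Among these 12, Areg in conventional CD4 T cells did not fall short of 2-fold but turned to a ratio of 4.42. No paired analysis was possible because each group is 1 library of different mice. The cause of these shifts was not tested.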

Other observations

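NKT-like T cells changed in more than Il4. Cd40lg, which encodes the CD40 ligand, stood in them at 293, 174, 175 and 134.5 CPM, so its levels in treated WT and miR-146a-/- were close while Il4 fell from 71.75 to 24.7 CPM between them. Il13 stood at 3.18, 7.30, 0 (at most 2.47) and 0.634 CPM, from at most 40 UMIs. Conventional CD4 T cells of miR-146a-/- with Il10 had higher Havcr2 (ratio 3.99), Lag3 (2.88) and Ifng (2.46) and lower Gata3 (0.518) than those without it, and in DKO the first 3 ratios were 3.82, 3.40 and 3.04. These genes other than Gata3 were added after their values had been seen, and the difference in depth between the cells was not tested as a cause.

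Each group is 1 library, so differences between mice, between preparations and between groups cannot be told apart, and age, DEN and diet differ together between the WT libraries. Transcripts were counted, and secreted protein was not. Sorting and tissue preparation can start cytokine transcription, and this was not tested. Several values rest on a few cells with many UMIs, which the intervals do not cover. Classes follow marker transcripts, so cells with missed markers are in other T cells or in no class. Under 50 cells were regulatory T cells of treated WT, gamma-delta T cells of miR-146a-/-, neutrophils of both WT libraries, classical monocytes, C1q-high macrophages and cDC2 of young WT, and pDC and mature DC of each library.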
